A study of Mus musculus with 15 samples.

Results

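The 10 genes described here, Cst7, Itgax, Clec7a, Spp1, Cd9, Cd63, Lgals3, Gpnmb, Igf1 and Fabp5, are marker genes of disease-associated microglia (DAM), taken as a given list out of the 32372 genes measured, and 9 of them had enough counts for a fit across genes (all but Gpnmb). Their RNA was counted in single cells that had been enriched with CD45 beads from brain tissue (cortex and hippocampus) of 15 C57BL/6J mice, all male and aged 3.5 months. CD45 is a surface protein of all leukocytes, microglia included. All 15 mice were hTfR KI, that is, they carried human transferrin receptor sequence, and all received a single dose of 10 mg/kg of an antibody on the antibody transport vehicle (ATV), an Fc that binds this receptor. A control group given ATV:RSV was taken at day 1. The other 4 groups were given ATV:4D9 and taken at day 1, 7, 14 or 28. Each of the 5 groups had 3 mice, 1 from each of 3 batches. 4D9 binds TREM2, a lipid-sensing receptor of microglia, and ATV:RSV is the control antibody. The labels give ATV:RSV at day 1 alone, so the same 3 control mice of day 1 served all 4 days, and day after dosing cannot be told apart from treatment in the later comparisons. The comparisons ask which of these genes responded to ATV:4D9 at day 1, which at day 7 and which on neither day, and whether the responding genes were found in the same cells.

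DAM were described in brains with amyloid or other damage as microglia that lower their homeostatic genes and raise genes for phagocytosis, lysosomes and lipid handling. Entry into the full state is known to need TREM2 signalling through TYROBP. The genes of the list do different jobs. Cst7 encodes cystatin F, an inhibitor of lysosomal cysteine proteases. Itgax encodes CD11c, an integrin alpha chain, and Clec7a encodes dectin-1, a receptor for beta-glucans. Cd9 and Cd63 encode tetraspanins, of which CD63 sits mainly in late endosomes and lysosomes. Lgals3 (galectin-3), Spp1 (osteopontin) and Igf1 (insulin-like growth factor 1) encode secreted proteins. Fabp5 encodes a cytosolic fatty acid binding protein, and Gpnmb a glycoprotein of lysosomal and surface membranes.

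The promoters of Cst7, Itgax and Gpnmb are shown because they hold the motif TGANTCA. It is a loose form of the AP-1 recognition sequence, with any base at its centre. The matches read TGATTCA in Cst7, TGAGTCA in Itgax and TGACTCA in Gpnmb. Another reason is that the first 2 genes were called at days 1 and 7 while Gpnmb was hardly counted at all. Each window runs from 250 bases before to 50 bases after the RefSeq start of the gene in GRCm38.p6, on the plus strand, and the capitals mark the match to the motif.
Cst7: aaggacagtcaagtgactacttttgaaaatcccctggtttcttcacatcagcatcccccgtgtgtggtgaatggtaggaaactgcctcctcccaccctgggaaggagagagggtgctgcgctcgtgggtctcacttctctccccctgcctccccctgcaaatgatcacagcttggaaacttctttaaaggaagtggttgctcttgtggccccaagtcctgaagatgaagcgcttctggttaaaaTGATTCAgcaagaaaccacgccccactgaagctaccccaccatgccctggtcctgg
Itgax: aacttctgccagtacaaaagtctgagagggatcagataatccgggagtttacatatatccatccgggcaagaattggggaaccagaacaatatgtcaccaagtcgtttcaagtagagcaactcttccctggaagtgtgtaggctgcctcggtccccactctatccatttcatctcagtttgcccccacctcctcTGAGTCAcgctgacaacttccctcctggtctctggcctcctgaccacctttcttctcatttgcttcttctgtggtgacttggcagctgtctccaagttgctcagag
Gpnmb: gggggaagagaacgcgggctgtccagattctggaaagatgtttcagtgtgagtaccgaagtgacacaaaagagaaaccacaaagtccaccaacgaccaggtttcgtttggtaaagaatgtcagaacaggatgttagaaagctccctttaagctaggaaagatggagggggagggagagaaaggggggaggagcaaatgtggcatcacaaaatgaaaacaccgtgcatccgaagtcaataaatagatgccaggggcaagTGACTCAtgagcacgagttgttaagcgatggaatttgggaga
The windows are chr2:150570165-150570464 for Cst7, chr7:128129300-128129599 for Itgax and chr6:49036268-49036567 for Gpnmb. Searched on both strands, TGANTCA was found in 4 of the 9 members with a RefSeq promoter entry (Cst7, Itgax, Gpnmb and Igf1), that is in 4 of the 11 windows of these 9 genes, and in 2565 of 32851 promoters of the same length (7.81%). GAGGAAGT, a form of the site of the myeloid factor PU.1, was found in 1 of the 9 (Spp1), or 1 of the 11 windows, and in 1052 promoters (3.20%), and it does not overlap TGANTCA. These matches describe letters in a window and were not set against any measurement of binding.

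Unique molecular identifiers (UMIs) were counted in 102043 cells, at 5667 to 7596 cells a mouse and totals of 32341960 to 70307384 UMIs. All 7 microglia markers were detected in every group. Levels are in CPM (UMI counts scaled to a common library total). For sums of markers the scaling was by library size alone, and for single genes per mouse by TMM. The summed level of the microglia markers was 11849 to 13217 CPM in the ATV:4D9 mice of day 1, against 16641 to 19190 in the other 12 mice. That of 8 border macrophage markers was 131 to 139 CPM in the ATV:4D9 mice of day 1, against 162 to 204.5. The same 3 mice stood apart in depth and cell cycle genes: their median was 8202 to 8996 UMIs per cell against 4694 to 6117 elsewhere, and 19.6% to 27.4% of their cells had a UMI of Mki67 or Top2a against 0.169% to 0.684%. Cells with UMIs of 3 or more markers of another cell type, here called cells of other types, were 1.91% to 2.25% of the cells at day 1 of ATV:4D9 and 0.880% to 1.77% in the other mice. The rule was applied at the full depth of each cell, so the deeper cells of day 1 pass it more easily. By border macrophage markers 318 cells passed at day 1 of ATV:4D9 and 128 to 170 in the other groups, although the summed level of these markers was lower at day 1. The part of depth in this was not tested. The median percent of mitochondrial UMIs per cell was 3.96 to 4.50 in the mice of day 1, 3.49 to 4.04 at day 7, 3.11 to 3.38 in ATV:RSV, 3.13 to 3.64 at day 14 and 3.25 to 3.62 at day 28, and its part in the results was not tested. Of 100747 distinct cell barcodes, 1283 occurred in more than 1 library. Scaled by TMM, 50.1% of the 9872 genes called at day 1 (an adjusted p under 0.05 against ATV:RSV) were higher, and by library size alone 34.7% of 10649, since the median of all genes moved by -0.24 on the log2 scale. At day 7 the split was 75% of 568 by TMM and 26.4% of 1199 by library size alone, with a shift of -0.10, and between days 7 and 1 it was 49.3% and 59.8%, with a shift of 0.14. All 6 day 1 and 5 day 7 calls of members given below held under both scalings and under DESeq2 size factors.

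By their calls against ATV:RSV, the members tested fell into 4 kinds. These kinds follow the threshold and not a test of shape, and those of Cd9, Fabp5 and Spp1 depend on the processing, as given below. Cst7, Itgax, Clec7a and Cd63 were higher than in ATV:RSV at day 1 and, at lower levels, still at day 7. Cd9 and Lgals3 were called at day 1 and not at day 7, Fabp5 was called at day 7 and not at day 1, and Spp1 and Igf1 were called on no day. With limma-voom on UMIs summed per mouse, 6 of the 9 members tested were higher at day 1 (adjusted p under 0.05), where 69.2% of all 14260 genes tested were called and 34.7% were called higher. Their share at day 1 (66.7%) was close to that background in calls of either direction, so the number of calls at day 1 is not a result about these genes. At day 7, 5 of the 9 were higher, where 3.98% of all genes were called and 2.99% called higher. The median log2 fold change of the 9 was 1.18 at day 1 and 0.50 at day 7, and that of all genes tested was -0.05 and -0.00. At day 14 none of the 9 was called by limma-voom, edgeR or DESeq2, where limma-voom called 0.400% of all genes, and 770 genes, 2 of the 9 members among them, had an unadjusted p under 0.05. At day 28 limma-voom called 0 of 14260 genes (0%), with 571 genes and 2 members at an unadjusted p under 0.05, edgeR called 0 and DESeq2 called 14, of which Clec7a was a member. Between days 7 and 1 of ATV:4D9, 7 of the 9 differed (66.9% of all genes did), 6 of them lower at day 7 (33.9%) and 1 higher (33.0%). From day 7 to day 14, 4 of the 9 were lower (0.856% of all genes) and from day 7 to day 28 also 4 (1.82%).

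**Figure D1:**
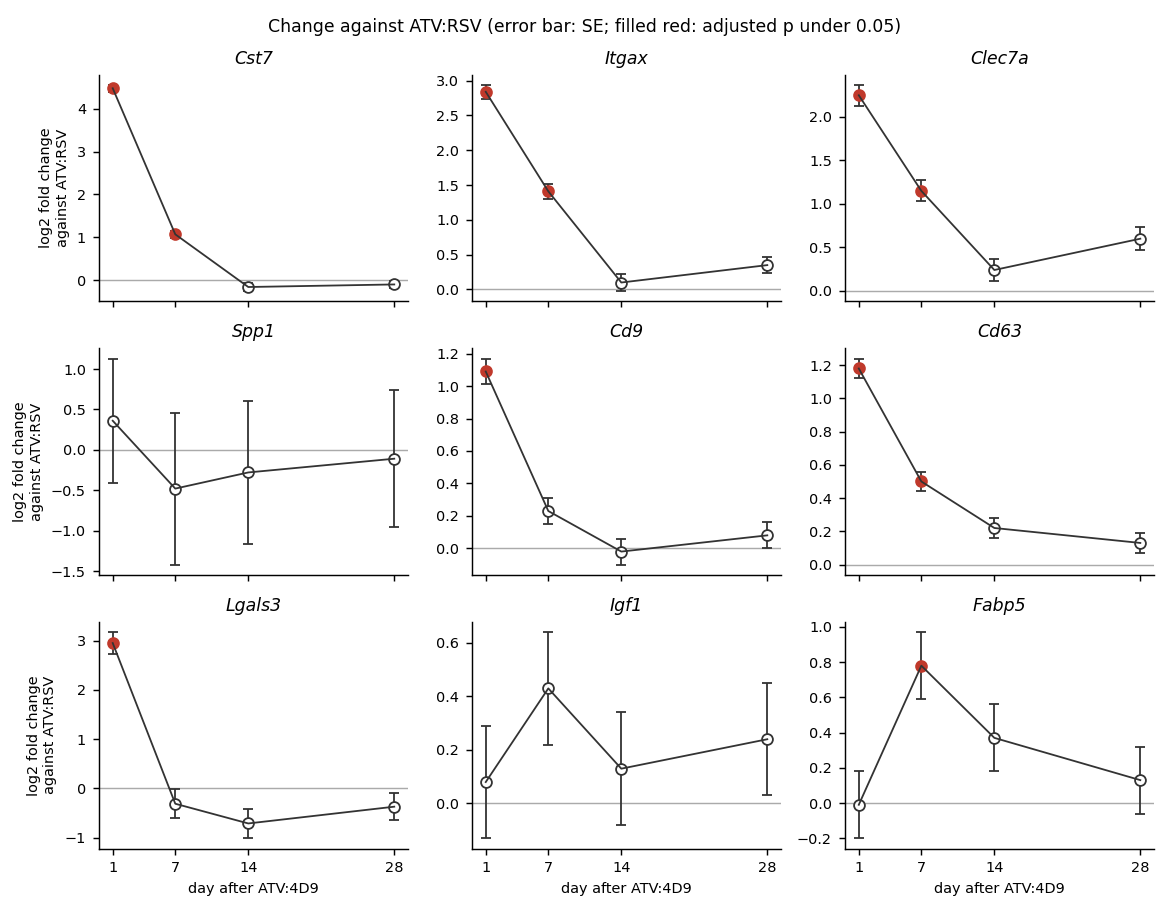
Log2 fold change of the 9 members tested against the 3 ATV:RSV mice (y axis) by day after ATV:4D9 (x axis, days 1, 7, 14 and 28), with bars of 1 SE from the limma-voom fit and filled red points where the adjusted p was under 0.05. Cst7 goes from 4.48 at day 1 to 1.07 at day 7, whereas Fabp5 goes from -0.01 to 0.78.

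Cst7 had the largest log2 fold change of the members at day 1. Scaled by TMM, its UMIs were 12.8, 12.7 and 12.3 CPM in the 3 ATV:RSV mice and 276, 271 and 294 CPM at day 1 of ATV:4D9. At day 7 the mice had 29.1, 24.8 and 25.6 CPM, at day 14 10.6, 11.2 and 11.98 CPM, and at day 28 10.9, 13.3 and 11.3 CPM. Every mouse of day 1 was above every mouse of day 7, and every mouse of day 7 above all those of ATV:RSV, day 14 and day 28, which lay close together. The rise at day 1 was 22.3-fold (log2 fold change 4.48 ± 0.08 SE, adjusted p = 2.65e-15, limma-voom), the lowest p of all genes tested, and at day 7 it was 2.10-fold (1.07 ± 0.08, adjusted p = 1.49e-06). The fall from day 1 to day 7 was 3.41 ± 0.07 on the log2 scale (adjusted p = 9.98e-15). It fell further by day 14 (-1.23 ± 0.08 against day 7, adjusted p = 3.58e-06) and stayed there at day 28 (-1.17 ± 0.08 against day 7, adjusted p = 4.83e-06), in both cases with the lowest p of all genes. Against ATV:RSV the day 14 mice were all lower, but by less than the test could call (-0.16 ± 0.09, unadjusted p = 0.0940, adjusted p = 1.00).

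Of the surface receptors, Itgax stood at 3.25, 3.98 and 3.13 CPM in ATV:RSV, at 25.6, 23.3 and 25.01 CPM at day 1 and at 8.46, 9.26 and 9.61 CPM at day 7. At day 14 it was at 3.66, 3.94 and 3.48 CPM and at day 28 at 4.40, 4.62 and 4.10 CPM. Days 1 and 7 overlapped with no other group, day 14 lay within the ATV:RSV range and all 3 mice of day 28 lay just above it. Itgax rose 7.16-fold at day 1 (log2 fold change 2.84 ± 0.10, adjusted p = 1.002e-12) and 2.67-fold at day 7 (1.41 ± 0.11, adjusted p = 1.34e-06). The fall from day 1 to day 7 was 1.43 ± 0.07 on the log2 scale (adjusted p = 1.25e-10). From day 7 it fell by 1.31 ± 0.10 to day 14 (adjusted p = 1.47e-05) and by 1.07 ± 0.10 to day 28 (adjusted p = 1.36e-05). The day 28 difference from ATV:RSV, 0.35 ± 0.12, had an unadjusted p of 0.00852 and was not called.

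Clec7a, which GENCODE M21 lists as a polymorphic pseudogene, was at 12.2, 11.7 and 10.7 CPM in ATV:RSV and at 61.2, 51.5 and 52.5 CPM at day 1. At day 7 it was at 20.3, 29.7 and 27.7 CPM, at day 14 at 13.7, 12.9 and 14.2 CPM and at day 28 at 17.7, 17.3 and 17.5 CPM. All ATV:4D9 mice, of every day, were above all ATV:RSV mice, and the order of the days was 1, 7, 28 and 14 with no overlap between them. The fold was 4.76 at day 1 (log2 fold change 2.25 ± 0.12, adjusted p = 9.78e-11) and 2.22 at day 7 (1.15 ± 0.12, adjusted p = 2.62e-05), with a fall of 1.10 ± 0.10 between the 2 days (adjusted p = 1.02e-07). Relative to day 7 it was lower at day 14 (-0.91 ± 0.12, adjusted p = 0.00348) and at day 28 (-0.55 ± 0.11, adjusted p = 0.0149). The call between days 28 and 7 was lost without replicate 2 or 3 of day 7 (adjusted p = 0.0734 and 0.0978) and without replicate 2 or 3 of day 28 (0.0683 and 0.0557). It was also lost with only the groups compared (0.0642) and, as was the call between days 14 and 7, without batch 2 or batch 3 (0.410 and 0.314, and 0.250 and 0.181 between days 14 and 7). At day 28 the difference from ATV:RSV was 0.60 ± 0.13 (unadjusted p = 0.000236, adjusted p = 0.427 by limma-voom and 0.00104 by DESeq2), and at day 14 it was 0.24 ± 0.13 (unadjusted p = 0.0862). Clec7a and Itgax were thus the 2 of 9 members with every day 28 mouse above every ATV:RSV mouse, a separation seen in 4.59% of all genes tested.

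**Figure D2:**
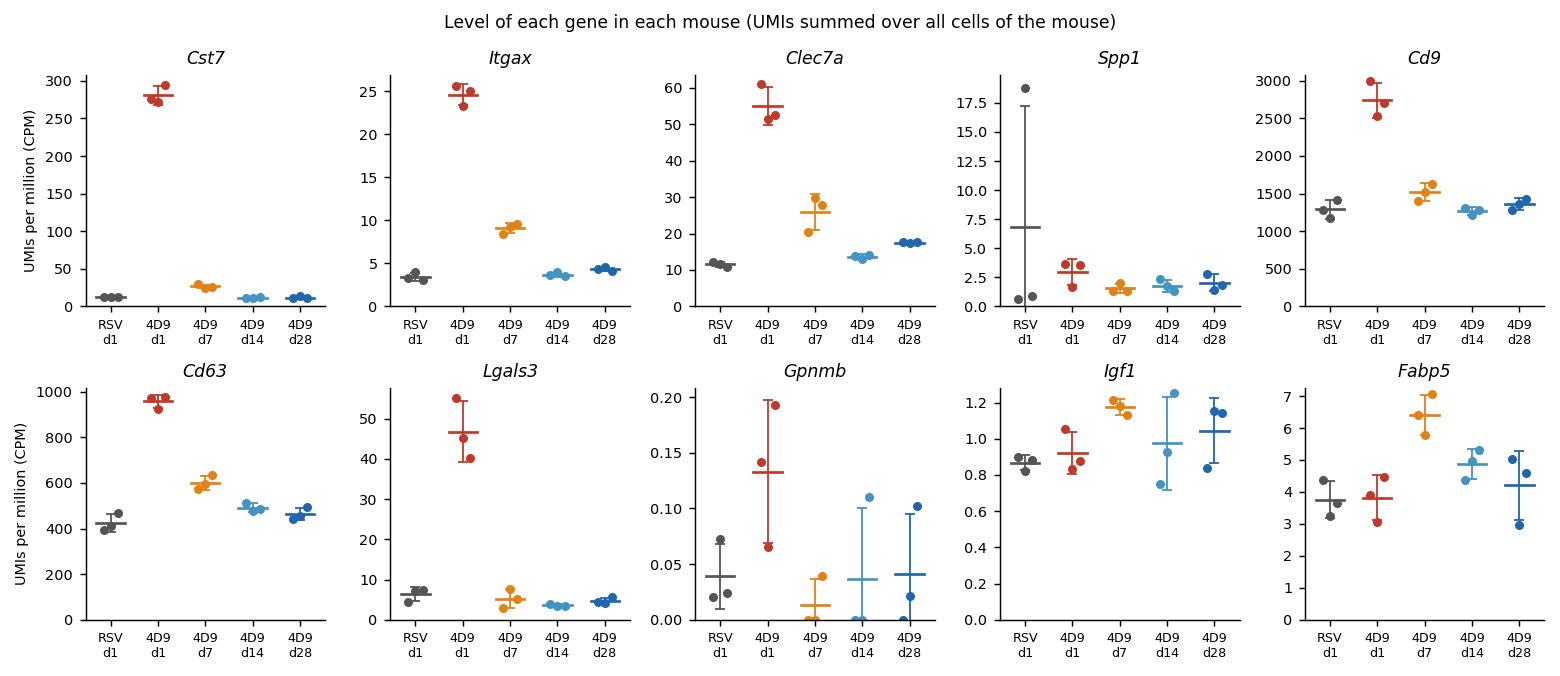
Level of each of the 10 members in each mouse (y axis, TMM-scaled CPM of UMIs summed per mouse) in ATV:RSV and ATV:4D9 at days 1, 7, 14 and 28 (x axis), with a line at the mean and bars of 1 SD over 3 mice. Cst7 reaches 271 to 294 CPM at day 1, Clec7a stays above the ATV:RSV mice at day 28, and 1 ATV:RSV mouse at 18.8 CPM sets the scale for Spp1.

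The tetraspanins were abundant before treatment, and their rises were of smaller fold. Cd63 was at 394, 413 and 466 CPM in ATV:RSV, at 973, 926 and 977 CPM at day 1, at 573, 595 and 634 CPM at day 7, at 514, 476 and 485 CPM at day 14 and at 443, 457 and 494 CPM at day 28. Days 1, 7 and 14 each lay above all ATV:RSV mice, and day 28 overlapped with them. Cd63 rose 2.26-fold at day 1 (log2 fold change 1.18 ± 0.06, adjusted p = 1.30e-10) and 1.42-fold at day 7 (0.50 ± 0.06, adjusted p = 0.000111), and the fall between them was 0.67 ± 0.06 (adjusted p = 1.00e-07). The further falls from day 7 were 0.29 ± 0.06 to day 14 (adjusted p = 0.0407) and 0.37 ± 0.06 to day 28 (adjusted p = 0.00336). The first of these calls was lost when any of 11 mice was left out: replicates 1, 2 and 3 of day 7 (adjusted p = 0.0672, 0.131 and 0.232), of day 14 (0.0681, 0.199 and 0.151) and of ATV:4D9 day 1 (0.0558, 0.0562 and 0.0523), replicate 2 of ATV:RSV (0.0527) and replicate 2 of day 28 (0.0652). It was also lost by library size alone (adjusted p = 0.101), with only the groups compared (0.0557) and without batch 1, 2 or 3 (0.0663, 0.771 and 0.230), and the call to day 28 was lost without batch 2 (0.216). Against ATV:RSV, day 14 was higher by 0.22 ± 0.06 (unadjusted p = 0.00363, adjusted p = 0.314).

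Cd9 stood at 1283, 1172 and 1419.8 CPM in ATV:RSV and at 2990.2, 2525 and 2708 CPM at day 1. It was at 1397, 1523 and 1630.3 CPM at day 7, at 1313, 1213 and 1286 CPM at day 14 and at 1276, 1366 and 1432 CPM at day 28. Day 1 alone was clear of the ATV:RSV mice, with a 2.12-fold rise (log2 fold change 1.09 ± 0.08, adjusted p = 4.11e-09), and day 7 overlapped with them (0.23 ± 0.08, adjusted p = 0.119 by limma-voom and 0.0469 by DESeq2). The drop from day 1 to day 7 was itself called (-0.85 ± 0.08, adjusted p = 8.00e-08). Cd9 overlaps 2 annotated genes of the opposite strand, Gm28809 and Gm26728, that were counted separately.

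Among the secreted proteins, Lgals3 rose at day 1 and was not called at day 7. Its level was 4.29, 7.21 and 7.37 CPM in ATV:RSV, 55.1, 45.2 and 40.2 CPM at day 1, 2.86, 7.68 and 5.25 CPM at day 7, 4.01, 3.49 and 3.50 CPM at day 14 and 4.34, 4.22 and 5.54 CPM at day 28. The day 1 mice were far above all others, day 7 overlapped with ATV:RSV and day 14 lay below it. The day 1 difference was 7.72-fold (log2 fold change 2.95 ± 0.22, adjusted p = 6.29e-09), and that of day 7 was -0.31 ± 0.29 (adjusted p = 0.656), with a fall of 3.26 ± 0.24 between them (adjusted p = 8.27e-09). Day 14 differed from ATV:RSV by -0.71 ± 0.30 (unadjusted p = 0.0336, adjusted p = 0.816). Lgals3 is also a gene of monocytes and macrophages, and cells of other types held 5.69% to 17.1% of its UMIs in the control mice and 2.03% to 6.47% at day 1. Without those cells the day 1 log2 fold change was 3.06. Summed and scaled by library size alone, 6 monocyte markers, all detected, were at 15.2 to 20.6 CPM at day 1 of ATV:4D9. They were at 6.89 to 15.6 CPM in ATV:RSV and at 6.65 to 15.6 over all other mice. Only 1 cell of day 1 had 3 or more of these markers, so leaving out cells of other types removed few cells with monocyte markers, and their part in the rise of Lgals3 was not tested.

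Spp1 gave no stable comparison, because 1 library decided it. The 3 ATV:RSV mice had 33, 780 and 37 UMIs of Spp1, or 0.675, 18.8 and 0.883 CPM, and the day 1 mice of ATV:4D9 had 230, 102 and 166, or 3.61, 1.67 and 3.55 CPM. At day 7 it was at 1.36, 2.02 and 1.35 CPM, at day 14 at 2.33, 1.72 and 1.30 CPM and at day 28 at 2.82, 1.41 and 1.88 CPM. Of the 780 UMIs in replicate 2 of ATV:RSV, 562 came from 1 cell and 720 (92.3%) from 2 cells. With all mice the day 1 log2 fold change was 0.36 ± 0.77 (adjusted p = 0.688). Without that mouse it was 1.82 (adjusted p = 0.00423), and without the 2 cells with most Spp1 UMIs in each mouse, a setting chosen after seeing the data, it was 1.78 (adjusted p = 0.00138), with 0.17 at day 7, -0.04 at day 14 and 0.42 at day 28. The day 1 difference was also called without the 5% of cells with most UMIs (2.00, adjusted p = 0.00201) and without batch 2, to which that mouse belongs (2.21, adjusted p = 0.000277, also chosen after seeing the data). Between days 7 and 1 the mice overlapped and the difference was not called with all mice (-0.85 ± 0.88, adjusted p = 0.412). It was called with only the groups compared (-0.84, adjusted p = 0.0484), without replicate 2 of ATV:RSV (-0.84, adjusted p = 0.0464), without the 5% of cells with most UMIs (-1.87, adjusted p = 0.00412), without batch 2 (-1.40, adjusted p = 0.00210) and without the 2 richest cells per mouse (-1.61, adjusted p = 0.00343). Cells of other types held 3.04%, 5.88% and 28.3% of the Spp1 UMIs in the day 1 mice, against 0.641% to 3.03% in ATV:RSV. Without those cells the day 1 log2 fold change was 0.21 (adjusted p = 0.817), with the same ATV:RSV library in the fit. Apart from that library, every ATV:4D9 mouse was above the other 2 ATV:RSV mice.

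Igf1 was rare, with 34 to 67 UMIs per mouse. Its level was 0.8996, 0.820 and 0.883 CPM in ATV:RSV, 1.05, 0.833 and 0.877 CPM at day 1 and 1.22, 1.18 and 1.13 CPM at day 7, and it ranged from 0.749 to 1.26 CPM at days 14 and 28. All 3 mice of day 7 were above all mice of ATV:RSV and of day 1, but neither difference was called (0.43 ± 0.21, adjusted p = 0.330, and 0.35 ± 0.20, adjusted p = 0.130), and 27 of the 57 UMIs in replicate 3 of day 7 came from 1 cell. Day 7 was called above day 1 without cells of other types (0.81, adjusted p = 0.00221) and by library size alone (0.49, adjusted p = 0.0396), and the difference was -0.18 without the 5% of cells with most UMIs. At day 1 cells of other types held 31.4% to 37.3% of its UMIs, against 5.88% to 21.6% in ATV:RSV. The day 1 log2 fold change was 0.08 ± 0.21 with all cells, -0.29 without those cells and -0.16 when scaled by library size alone. Igf1 overlaps Igf1os on the opposite strand.

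Fabp5 had its highest levels at day 7, as Igf1 did in the mean, and alone of the members was called at day 7 and not at day 1. It stood at 4.38, 3.26 and 3.65 CPM in ATV:RSV, at 3.90, 3.07 and 4.47 CPM at day 1, at 6.40, 5.78 and 7.06 CPM at day 7, at 4.37, 4.98 and 5.31 CPM at day 14 and at 5.04, 2.98 and 4.61 CPM at day 28. The 3 day 7 mice were above all other mice, and the other groups overlapped with ATV:RSV. Day 7 was 1.72-fold above ATV:RSV (log2 fold change 0.78 ± 0.19, adjusted p = 0.0254), day 1 was level with it (-0.01 ± 0.19, adjusted p = 0.949), and day 7 was above day 1 by 0.80 ± 0.17 (adjusted p = 0.000806). The call against ATV:RSV was lost without replicate 2 or 3 of ATV:RSV (adjusted p = 0.121 and 0.0794) and without replicate 1 or 3 of day 7 (0.0572 and 0.142). Day 28 was lower than day 7 by 0.65 ± 0.18 (adjusted p = 0.0814), and this difference was called with the batch as a block (-0.61, adjusted p = 0.0204). Fabp5 had 135 to 356 UMIs per mouse, 33 of them from 1 cell in replicate 3 of day 7. The genome holds a near-identical processed copy, Fabp5l2. Whether reads were shared with this copy was not tested, so the counts of Fabp5 are uncertain.

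Gpnmb was too rare for the fit across genes. It had 1, 3 and 1 UMIs in the ATV:RSV mice, 9, 4 and 9 at day 1, 0, 0 and 2 at day 7, 0, 0 and 5 at day 14 and 0, 1 and 5 at day 28. The UMIs of day 1 came from 6, 3 and 2 cells.

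A sum over the cells of a mouse does not show how the UMIs are spread over its cells. Each cell was therefore also thinned at random to 3385 UMIs, which 91839 cells reached, and the cells with at least 1 UMI were counted. For a sparse gene this share also rises when all cells hold more of it. It therefore does not tell more cells with a gene from more UMIs in each. The share of cells with a Cst7 UMI was 3.52% ± 0.293 (SD, n = 3) in ATV:RSV, 44.0% ± 0.497 at day 1, 6.68% ± 0.563 at day 7, 3.20% ± 0.430 at day 14 and 3.26% ± 0.312 at day 28. Unthinned it was 5.08% to 6.41% in the ATV:RSV mice and 63.1% to 65.3% at day 1. In the same thinned cells, Cst7 had 40.6 ± 1.89 UMIs per 1000 cells in ATV:RSV, 795 ± 11.4 at day 1 and 83.5 ± 11.4 at day 7. At day 1 these UMIs were 19.6-fold those of ATV:RSV and the share of cells 12.5-fold. A thinned cell with Cst7 held 1.16 ± 0.0453 UMIs of it in ATV:RSV and 1.80 ± 0.0149 at day 1, a measure that cannot fall below 1.

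Itgax was found in 0.890% of thinned cells in ATV:RSV, 6.07% at day 1, 2.58% at day 7, 1.14% at day 14 and 1.22% at day 28, as means of 3 mice. The means of Clec7a were 2.22%, 9.97%, 5.40%, 2.76% and 3.44%. For both genes every ATV:4D9 mouse of every day was above every ATV:RSV mouse in these thinned cells. For Clec7a this rested on 2.489% in replicate 1 of day 14 against 2.481% in replicate 1 of ATV:RSV, with overlapping Wilson intervals. Unthinned, these 2 mice stood the other way round, at 3.997% and 4.259%. The share of all genes with such a separation was not computed. The lowest and highest day 28 mice had 1.18% and 1.29% for Itgax and 3.35% and 3.52% for Clec7a, against 0.811% to 0.949% and 1.99% to 2.48% in ATV:RSV. Lgals3 was found in 0.698% to 0.839% of cells in ATV:RSV, 4.69% to 6.05% at day 1 and 0.663% to 0.955% at day 7. Fabp5 was found in 1.00% to 1.29% of cells in ATV:RSV, 0.758% to 1.02% at day 1 and 1.61% to 2.09% at day 7. Spp1 was found in 0.140%, 0.269% and 0.140% of cells in ATV:RSV and in 0.643%, 0.386% and 0.549% at day 1, with no overlap, whereas its summed levels overlapped.

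Permuted within the batches over the 5 groups, these shares differed for Clec7a (exact p = 6.94e-05, the smallest the 14400 arrangements can give), Cd63 (exact p = 0.000208), Itgax (exact p = 0.000278), Cst7 (exact p = 0.00125), Cd9 (exact p = 0.00174), Fabp5 (exact p = 0.0075), Lgals3 (exact p = 0.0145) and Spp1 (exact p = 0.0333). The p-values for Gpnmb and Igf1 were 0.2 and 0.749 in the same exact test. These are two-sided and unadjusted, for 10 genes. The test was not run over all genes, and 69.2% of all genes tested were called at day 1. The number of members that differed is therefore not read as a result about these genes. The p-value of Spp1 passed 0.05 with a second random seed, with cells thinned to the 25th percentile of UMIs and with a minimum of 2 UMIs (exact p = 0.0778, 0.0594 and 0.715), and that of Fabp5 with cells thinned to the 5th percentile and with a minimum of 2 UMIs (exact p = 0.113 and 0.0739). Without cells of other types Spp1 gave an exact p of 0.0279. The other 6 stayed under 0.05 in the 5 alternatives run, and Gpnmb came under it in 1 of them, with cells thinned to the 25th percentile (exact p = 0.04). For a single day against ATV:RSV, 3 mice against 3 cannot give an exact permutation p under 0.1. Cells of types other than myeloid were used as a rough background, and whether such cells express the members themselves was not tested. They were 32 cells with at least 3 markers of such a type and at most 2 microglia markers. Their median was 7248 UMIs against 5854 in all cells. None had a UMI of Cst7, Itgax, Clec7a or Gpnmb, which allows a share of up to 9.38%. Of these 32 cells, 7 came from day 1 of ATV:4D9, where 0 of 7 allows up to 42.9%, so the background of day 1 itself was hardly bounded. The limit of 9.38% is also above every thinned share of Itgax, and above those of Cst7 and Clec7a outside day 1 of ATV:4D9. The 32 cells were counted at full depth, however, so they are not matched in depth to the thinned shares. Unthinned, the day 1 shares were 14.3% to 16.4% for Itgax and 18.2% to 21.4% for Clec7a. Outside day 1 of ATV:4D9 the limit therefore bounds little for these shares either. Of all 32 cells 37.5% had a UMI of Lgals3, 9.38% of Fabp5, 6.25% of Igf1 and 3.12% of Spp1, each above the thinned share of that gene in every mouse, so those shares were not read as expression in microglia on their own. Of Cd63 and Cd9, 75% and 56.2% of these cells had a UMI. These percentages can hold expression by the cells themselves as well as background, and these were not told apart.

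**Figure D3:**
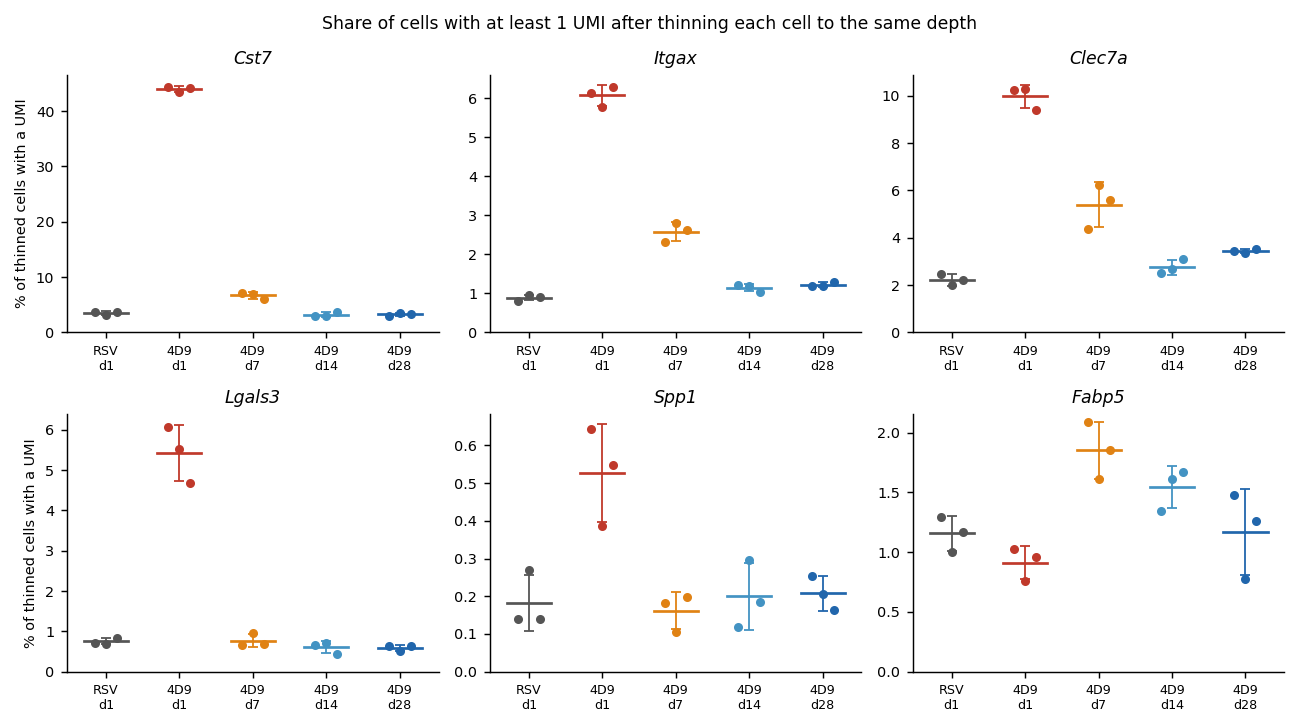
Percent of cells with at least 1 UMI of Cst7, Itgax, Clec7a, Lgals3, Spp1 and Fabp5 after thinning to 3385 UMIs (y axis) in each mouse by group (x axis), with the mean and 1 SD over 3 mice. Cst7 goes from 3.52% to 44.0% of cells at day 1, the Lgals3 mice of day 7 lie on both sides of the ATV:RSV mice, and Fabp5 is highest at day 7.

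Whether the genes responded in the same cells was asked of the thinned cells. At least 1 of Cst7, Itgax and Clec7a was found in 6.07% ± 0.448 (SD, n = 3) of cells in ATV:RSV, 50.2% ± 0.887 at day 1, 13.1% ± 1.07 at day 7, 6.55% ± 0.527 at day 14 and 7.16% ± 0.197 at day 28. At least 2 of the 3 were found in 0.512% ± 0.0416, 9.01% ± 0.499, 1.46% ± 0.154, 0.521% ± 0.116 and 0.693% ± 0.110 of cells, and all 3 in 9, 162, 20, 6 and 14 cells. The mean number of the 10 members in a thinned cell was 1.73 to 1.79 in the ATV:RSV mice, 2.48 to 2.51 at day 1, 1.90 to 1.94 at day 7 and 1.77 to 1.81 at days 14 and 28.

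For each pair of members, the cells with both were counted against the number expected if the genes were found independently of each other in each mouse. Cst7 and Itgax were found together in 23 cells of ATV:RSV where 5.53 were expected, a ratio of 4.16. At day 1 they were together in 676 cells where 519 were expected (1.30), and at day 7 in 75 where 28.5 were expected (2.63, with 1.86 to 3.04 in single mice). Cst7 and Clec7a gave ratios of 4.19 in ATV:RSV (59 cells), 1.37 at day 1 (1179 cells) and 2.38 at day 7 (142 cells), and Itgax and Clec7a gave 7.74 (27 cells), 1.97 (232 cells) and 2.88 (68 cells). At days 1 and 7 all 3 pairs were above 1 in each of the 3 mice. The ratio has a ceiling, the inverse of the larger share, which Cst7 lowers at day 1, so the day 1 ratios of the 2 pairs with Cst7 are not comparable with those of ATV:RSV. The share of Clec7a also rose at day 1 and lowers the ceiling of Itgax with Clec7a. Differences in that ratio between the groups are therefore not read as a change in co-detection.

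Within the deposited clusters the ratios of the pairs among Cst7, Itgax and Clec7a were smaller and stayed above 1. With the expected number taken within each cluster, Itgax and Clec7a gave 2.71 in ATV:RSV, 1.89 at day 1 and 2.00 at day 7, Cst7 and Itgax 2.53, 1.26 and 1.97, and Cst7 and Clec7a 2.18, 1.32 and 1.57. Lgals3 went with Cst7 at day 1, in 726 cells where 469 were expected (1.55, with 1.52 to 1.60 in single mice and 1.48 within clusters). The ratio of Lgals3 and Cst7 was 6.58 in ATV:RSV (31 cells), 4.04 at day 7 (34 cells), 4.70 at day 14 (16 cells) and 6.87 at day 28 (26 cells). These are not comparable with day 1, where Cst7 lowers the ceiling. Fabp5 and Cst7 were found together in 77 cells at day 1 where 78.0 were expected (0.987) and in 22 cells at day 7 where 20.5 were expected (1.07, with 0.544 to 1.71 in single mice). The ratio of this pair was 2.05 in ATV:RSV (15 cells, 1.12 to 3.23 in single mice), 1.57 at day 14 (14 cells) and 2.15 at day 28 (16 cells). Fabp5 and Clec7a gave 2.37 in ATV:RSV (11 cells, 0.898 to 3.40 in single mice), 1.36 at day 1, 1.69 at day 7 (28 cells, 1.48 to 1.91), 1.95 at day 14 and 2.98 at day 28. Apart from Cst7 with Fabp5 at day 1, these ratios with Fabp5 rest on 11 to 28 cells a group. Cst7 and Spp1 were together in 57 cells at day 1 where 44.98 were expected, with ratios of 0.949 to 1.59 in single mice. Over the 13 of 45 pairs with at least 5 cells expected in every mouse, all of which include Cd9 or Cd63, the mean log2 ratio was 0.0292 to 0.119 in the 15 mice. Cd9 was found in 97.4% of thinned cells in ATV:RSV and 99.5% at day 1, and Cd63 in 69.0% and 82.5%, so the ceiling of these pairs is near 1 and lower at day 1, and nothing is read from differences of their mean between groups.

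**Figure D4:**
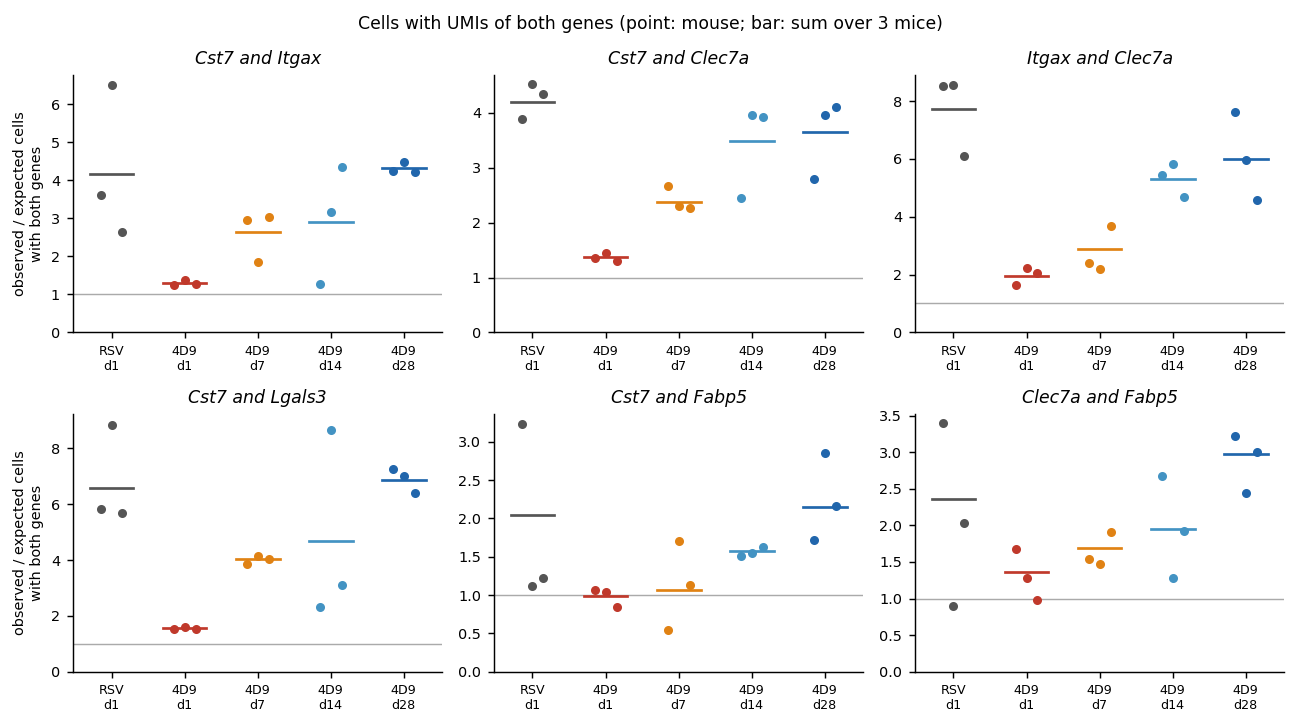
Observed over expected number of thinned cells with both genes (y axis) for 6 pairs of members, 1 point per mouse by group (x axis), with a grey line at 1. Itgax with Clec7a lies above 1 in every mouse, and Cst7 with Fabp5 lies around 1 at days 1 and 7.

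The tetraspanins were found in most cells, so cells were split by a UMI of another member, a choice made after seeing the data. Of the members used for such splits, only Cst7 is given here, as cells with and without a UMI of it. In UMIs per thinned cell, those with Cst7 held more Cd63 by a ratio of 1.63 ± 0.197 (SD, n = 3) in ATV:RSV, 1.49 ± 0.0315 at day 1 and 1.78 ± 0.162 at day 7, and more Cd9 by 1.19 ± 0.0172 at day 1 and 1.35 ± 0.0484 at day 7. Clec7a was at 200.5 UMIs per 1000 cells with Cst7 and 98.0 per 1000 without it at day 1 (a ratio of 2.06 ± 0.260) and at 230 and 68.4 at day 7 (3.42 ± 0.362). The day 7 ratios within clusters 0 and 1 alone were 2.99 ± 0.624 for Itgax, 2.26 ± 0.465 for Clec7a, 1.55 ± 0.0957 for Cd63 and 1.25 ± 0.0103 for Cd9. For Fabp5 the ratio was 1.43 ± 0.937 at day 7, an error that spans 1. These ratios rest on 178 to 239 cells with Cst7 per mouse in ATV:RSV, 2497 to 3040 at day 1 and 327 to 427 at day 7.

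The 3 deposited clusters were made from these cells and genes, so levels in them are a description. The depth behind them differed: cluster 2 held 5607 to 6597 cells per mouse at day 1 of ATV:4D9 and 74 to 245 elsewhere, and at day 1 cluster 0 held 211 to 383 and cluster 1 180 to 555. In CPM within a cluster, Cst7 in cluster 0 was at 10.8 ± 1.10 (SD, n = 3) in ATV:RSV, 59.5 ± 10.6 at day 1 and 19.9 ± 2.04 at day 7. In cluster 1 it was at 11.7 ± 1.49, 80.7 ± 20.9 and 26.4 ± 5.11, and in cluster 2 at 118 ± 69.4, 260 ± 5.36 and 144 ± 8.70. Cst7 was thus higher at day 1 than in ATV:RSV in the mean of each cluster, also in the few cells of clusters 0 and 1 left at day 1.

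Clusters 0 and 1 held most cells of day 7, and day 7 had the highest mean of the groups there for some members only. In cluster 0 Clec7a was at 8.73 ± 1.13 CPM in ATV:RSV, 10.6 ± 3.75 at day 1 and 19.2 ± 3.92 at day 7, and in cluster 1 at 5.40 ± 1.10, 6.95 ± 0.626 and 18.9 ± 1.21. Itgax was at 2.69 ± 0.216, 7.02 ± 1.45 and 7.86 ± 0.232 CPM in cluster 0 and at 2.41 ± 0.4998, 4.53 ± 4.39 and 7.98 ± 0.689 CPM in cluster 1, where a day 1 mouse had 1 to 24 UMIs of it. Cd63 had 405 ± 32.2 CPM in cluster 0 of ATV:RSV, 383 ± 18.2 at day 1 and 536 ± 18.0 at day 7. In cluster 1 it had 493 ± 40.6 CPM in ATV:RSV, 545 ± 43.7 at day 1 and 632 ± 21.2 at day 7. Fabp5 in cluster 1 was at 2.68 ± 0.542 CPM in ATV:RSV, 1.74 ± 0.238 at day 1 (1 to 5 UMIs a mouse) and 5.87 ± 0.986 at day 7. In cluster 0 it was at 4.14 ± 0.944 CPM in ATV:RSV, 6.40 ± 0.596 at day 1 (7 to 14 UMIs a mouse) and 5.69 ± 0.288 at day 7, so day 1 was higher there. The day 7 means of Itgax, Clec7a, Cd63 and Fabp5 were therefore above those of ATV:RSV in both large clusters.

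The few cells of cluster 2 in ATV:RSV carried high levels of several members. There Clec7a was at 211 ± 107 CPM and Lgals3 at 236 ± 147 CPM, against 51.5 ± 6.43 and 44.1 ± 8.58 CPM in cluster 2 at day 1. At day 28 Clec7a was at 314 ± 9.16 CPM in cluster 2, and Fabp5 at 17.8 ± 7.36 CPM in ATV:RSV and 3.36 ± 0.606 at day 1. The level of Lgals3 was 1.99 ± 0.721 CPM in cluster 0 and 1.20 CPM in cluster 1 of ATV:RSV, and cluster 2 held 58.6%, 84.9% and 73.8% of its UMIs in these mice. In this cluster 7.67% of the ATV:RSV cells and 2.19% of the day 1 cells were cells of other types, and 15.04% and 26.4% were positive for Mki67 or Top2a. The part of those cells in the levels was not tested.

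**Figure D5:**
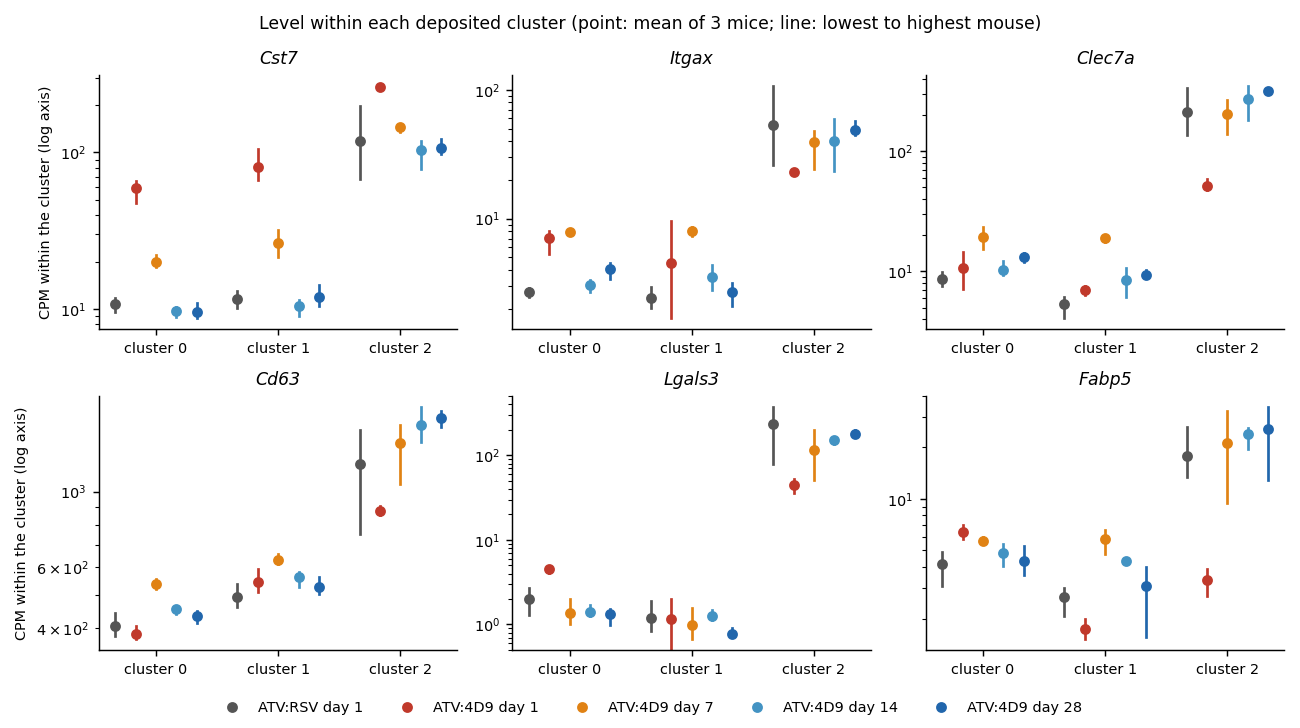
Level of Cst7, Itgax, Clec7a, Cd63, Lgals3 and Fabp5 within deposited clusters 0, 1 and 2 (y axis, CPM of the UMIs of that cluster, log scale) by group (x axis), as the mean of 3 mice with a line from the lowest to the highest mouse. Cst7 is higher at day 1 in all 3 clusters, while Clec7a in clusters 0 and 1 is highest at day 7.

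Other genes of the same pathways were taken from lists written from general knowledge. Among 8 further DAM genes of the first, TREM2-independent stage, 6 were higher and 1 lower at day 1 and 5 were higher at day 7. Apoe, which encodes a lipid carrier, fell at day 1 (log2 fold change -0.42 ± 0.17, adjusted p = 0.0432) and rose at day 7 (1.15 ± 0.17, adjusted p = 0.000693). Lyz2, lysozyme, was at 0.02 ± 0.14 at day 1 and rose at day 7 (0.62 ± 0.14, adjusted p = 0.0148). B2m, the light chain of MHC class I, Fth1, the ferritin heavy chain, and Ctsb, a lysosomal protease, rose on both days (0.69 and 0.53, 1.09 and 0.33, and 0.98 and 0.24). Cstb rose by 1.89 ± 0.05 at day 1.

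Among 14 further genes of the second stage, 9 were higher and 3 lower at day 1 and 5 were higher at day 7. Axl, a receptor for apoptotic cells, rose by 3.69 ± 0.20 and 1.76 ± 0.22 (adjusted p = 0.000132 at day 7), and Csf1, a ligand of the CSF1 receptor, and Cd52 rose on both days (1.67 and 0.67, and 2.46 and 0.73). Cadm1 rose on both days too (0.35 and 0.25), and Timp2 at day 7 (0.27 ± 0.05, adjusted p = 0.00554). Lpl, lipoprotein lipase, and Lilrb4a, an inhibitory receptor, rose at day 1 (4.35 ± 0.23 and 4.25 ± 0.14) and were at 0.43 and 0.31 at day 7 (adjusted p = 0.461 and 0.438). Trem2 itself was among the 3 that fell at day 1.

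Of 7 cystatins and their cathepsin targets, 3 were higher and 4 lower at day 1, led by Cstb, with Ctsc, a target of cystatin F, at 1.09 ± 0.07 and Cst3 and Ctss at -0.66 ± 0.06 and -0.62 ± 0.05, and 2 were higher at day 7 (Ctsh and Ctsb). Of 8 integrins and osteopontin receptors, 5 were higher and 2 lower at day 1 and none was called at day 7. Cd44, a receptor of osteopontin, rose by 1.62 ± 0.24 at day 1 and had 0.99 ± 0.27 at day 7 (adjusted p = 0.0521). Of 10 tested genes of the dectin-1 pathway and of sister lectins, 2 were higher and 7 lower at day 1 and none was called at day 7. Clec4a3 and Clec4a2 fell by 2.04 ± 0.09 and 1.40 ± 0.06, so the median of this list at day 1, -0.64, had the opposite sign to Clec7a.

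Of 9 other tetraspanins, 4 were higher and 4 lower at day 1, and at day 7 Cd81 and Cd82 were higher (0.23 and 0.22) and Cd151 lower (-0.30). Of 4 galectins and galectin-related genes, Lgals1, Lgals3bp and Lgals9 rose at day 1 (2.73 ± 0.15, 2.29 ± 0.10 and 0.82 ± 0.07), and only Lgals3bp was called at day 7 (0.82 ± 0.10, adjusted p = 0.000101). Of 6 tested genes of the IGF1 system, 2 were higher and 3 lower at day 1. Igfbp4, an IGF binding protein, rose at day 7 (1.20 ± 0.11, adjusted p = 4.33e-06) and was the only list gene called at day 14 (0.67 ± 0.11, adjusted p = 0.00900), where the fit with the batch as a block called 2. No such call was made at day 14 without replicate 2 or 3 of ATV:RSV or without replicate 1 of day 14 (0 in each).

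Of 9 tested genes of fatty acid binding and lipid handling, 3 were higher and 4 lower at day 1 and none was called at day 7. Fabp3, the heart-type relative of Fabp5, rose by 2.32 ± 0.23 at day 1 and had 0.43 ± 0.29 at day 7 (adjusted p = 0.507), and the scavenger receptor gene Cd36 rose by 2.86 ± 0.24 at day 1. Of 14 homeostatic genes, 1 was higher and 12 lower at day 1 and 3 were lower at day 7, namely P2ry12 (-1.31 and -0.22), Siglech (-0.97 and -0.23) and Fcrls (-0.21 and -0.25). Of 12 transcription factors linked to DAM genes, 4 were higher and 8 lower at day 1, with Maf at -1.18 ± 0.10, and none was called at day 7. Over all lists 97 distinct genes were tested, and 87 were called at day 1 (89.7%, against 69.2% of all genes), 19 at day 7 (19.6%, against 3.98%), 1 at day 14 and none at day 28. The day 7 count was 12 without replicate 2 of ATV:RSV.

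Other genes shared the time course of a member. Over the 4 log2 fold changes against ATV:RSV and among 11479 genes with a mean of at least 1 CPM, the genes nearest to Cst7 by the root mean square difference were Phf11a (0.129), Usp18 (0.201) and Isg15 (0.225), all known to respond to interferon. Those nearest to Itgax were Nlrc5 (0.215), Ifi209 (0.281) and Olfm4 (0.298), and those nearest to Clec7a were Fgr (0.160), Vill (0.202) and Fgl2 (0.203). Cd63 was nearest to Rps19, Gsto1 and Rpl22l1 (0.048 to 0.063) and Cd9 to Guca1a, Cyba and Slc7a6 (0.036 to 0.041). Lgals3 was nearest to Kif22 (0.160), a kinesin of dividing cells, Suv39h2 (0.190) and Mns1 (0.204). With Mki67-positive and Top2a-positive cells left out, Lgals3 had a day 1 log2 fold change of 3.32 and Cst7 of 4.59. Fabp5 was nearest to S100a4, Gstp2 and Rilpl2 (0.090 each). Igf1 was nearest to Slc12a3, Dennd2a and Ptms (0.067 to 0.073) and Spp1 to Adarb1, Nrarp and Ppp1r13l (0.062 to 0.084), but these 2 members had no called change of their own. Nearness here uses the same 3 control mice in all 4 values and is a description of the time course.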

How the data were processed

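Hemibrains were dissociated with enzymes, cells were enriched with CD45 beads, and 3′ libraries with UMIs were sequenced. The authors mapped reads to mm10 (Cell Ranger 4.0.0 in the submitters' processing notes; other versions appear in the study's methods) and filtered and clustered cells in Seurat, and the filters on cells are not given in the sources used here. The deposited matrix held raw UMI counts per gene and cell, and a deposited table gave the mouse, cluster number, UMI counts and percent of mitochondrial UMIs of each cell. The percent values entered no test. The matrix sums equalled the deposited UMIs in 102043 of 102043 cells (667 to 24995 UMIs per cell). A 16th animal named in the labels was not analysed here.

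Groups and batches came from the labels. Counts were summed per mouse, filtered with filterByExpr and TMM-scaled in edgeR 4.0.16, and a limma-voom model (limma 3.58.1, under R 4.3.3) of the 5 group means was fitted over 15 mice, with Benjamini-Hochberg adjustment over 14260 genes. The study's methods name limma-voom on summed counts for its single-cell data, and the contrasts of groups were set here. The fit was tested on simulated data. Of the alternatives, DESeq2 1.42.0 and edgeR used the same counts. CPM levels within clusters and the summed marker levels were not TMM-scaled. Log2 fold changes of rare genes depend on the prior count of 0.5 that voom adds. Shares of cells used cells thinned to 3385 UMIs, which left out 10204 cells (3.93% to 17.8% of a mouse), and exact permutations in Python 3.11.15 (numpy 2.4.6, pandas 2.3.3, scipy 1.17.1). Adjusting these p-values over the 10 members, and testing the members per cell and the mean over pairs, had been planned and were left out, since the members were a chosen list. No doublet caller was run, and whether doublets had been removed is not known. Limits for a count of 0 cover counting error only. Figures were drawn with matplotlib 3.10.9, and gene overlaps were read from GENCODE M21.

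The members and gene lists were chosen with earlier results of these data known. The text names all 10 members, list genes called at day 7 or among the 4 largest other changes called at day 1, and the 3 genes nearest to each member (no predicted genes). Where a list was described, only some of these were named, and Trem2 was added after its values were seen. The labels state that each batch held every group, so the batch number pairs the mice. Across genes, the deviations of mice of 1 batch from their group's mean had an average r of 0.0539 (30 pairs, -0.225 to 0.259), against -0.0267 for mice of different batches (60 pairs). Libraries of a group were not copies of each other (chi-square per degree of freedom 10.6 to 29.2).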

Additional observations from a re-analysis of the deposited data

Results flagged for a closer look

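Between days 7 and 1 of ATV:4D9 the log2 level differed by a test of the difference itself (limma-voom) for 7 members, and the values were -3.41 for Cst7, -1.43 for Itgax, -1.10 for Clec7a, -0.85 for Cd9, -0.67 for Cd63, -3.26 for Lgals3 and 0.80 for Fabp5. Fabp5 was the only one of the 7 that was higher on the later day, and Igf1 was also called higher there by library size alone (adjusted p = 0.0396) and without cells of other types (adjusted p = 0.00221). Between days 14 and 7 the same test called Cst7 (-1.23), Itgax (-1.31), Clec7a (-0.91) and Cd63 (-0.29). Between days 28 and 7 it called the same 4 genes, with -1.17 for Cst7, -1.07 for Itgax, -0.55 for Clec7a and -0.37 for Cd63. These differences compare the effects of different days over shared ATV:RSV mice, so they are also the differences between the effects against ATV:RSV.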

How the results depend on the processing

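The 6 calls of members at day 1 held under all 30 alternatives, as did those of Cst7, Itgax, Clec7a and Cd63 at day 7. The member counts were 6 to 7 at day 1 and 4 to 6 at day 7. The Fabp5 call at day 7 was lost without batch 1, 2 or 3 (adjusted p = 0.0573, 0.0622 and 0.267), alternatives chosen after seeing the data. Member calls at day 28 were 1 by DESeq2. Between days 14 and 7 they were 2 without batch 2 and 2 without batch 3. Between days 28 and 7 they were 2 without batch 2 and 5 by DESeq2. Apart from the call of Fabp5 between days 28 and 7 given above and 1 further list gene at day 14 (2 calls against 1), the batch as a block changed no call of a member and moved no count of calls by over 1.5 times.

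Calls in the other lists at day 7, 19 in the fit described, were 30 by library size alone, 29 by DESeq2, 12 without batch 1 and 7 without batch 2, and 12 to 22 with 1 mouse left out. At day 14 they were 3 by DESeq2, 0 with only the groups compared and 0 without batch 1, 2 or 3, and 0 to 1 with 1 mouse left out. The cause was not tested, beyond the fewer mice in some of these fits. The members per cell at day 1 minus ATV:RSV, 0.738 as reported, were 0.697 when thinned to the 5th percentile of UMIs and 0.808 at the 25th. With a minimum of 2 UMIs in place of 1, the share of cells at day 1 minus ATV:RSV went from 40.5 to 19.1 percentage points for Cst7, from 5.18 to 0.484 for Itgax, from 7.75 to 2.10 for Clec7a, from 4.67 to 1.97 for Lgals3 and from 0.343 to 0.0320 for Spp1, and at day 7 from 3.16 to 0.673 for Cst7, from 1.69 to 0.177 for Itgax, from 3.17 to 0.836 for Clec7a and from 0.696 to 0.0605 for Fabp5. In the same setting the day 1 difference rose from 2.14 to 8.35 for Cd9 and from 13.5 to 22.9 for Cd63. The members whose shares differed over the 5 groups, 8 as reported, numbered 6 to 8. The share of all genes that differ in this way was not computed, so this count is not a result about the members. The mean log2 ratio of pairs, from whose differences nothing is read since the ceiling was lower at day 1, was -0.0416 at day 1 minus ATV:RSV, and -0.0970 at the 25th percentile and -0.0728 with the expected number within clusters.

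Signs turned only for values that were not called. Fabp5 at day 1 was 0.01 with DESeq2 size factors, 0.02 with no filter on low counts, 0.01 by edgeR, 0.04 by DESeq2, 0.00 with the batch as a block, 0.07 without the 5% of cells with most UMIs and 0.08 and 0.04 without batches 1 and 2 (-0.12 to 0.14 with 1 mouse left out). Igf1 at day 1 was -0.16 by library size alone, -0.29 without cells of other types and -0.14 when thinned (-0.02 to 0.16). Spp1 at day 1 was -1.20 by edgeR, -1.18 by DESeq2, -0.18 with the batch as a block, and -0.79 and -0.36 without batches 1 and 3 (-0.57 to 1.82). Without the 5% of cells with most UMIs, Spp1 was 0.12, 0.13 and 1.19 at days 7, 14 and 28, and without batch 2 it was 0.81, 1.19 and 1.58. Without its 2 richest cells per mouse it was 0.17 at day 7 and 0.42 at day 28, and thinned it was 0.04 at day 28. With 1 mouse left out Spp1 ranged from -1.42 to 0.98 at day 7, from -1.21 to 1.18 at day 14 and from -1.04 to 1.35 at day 28. Thinned, Igf1 and Fabp5 at day 28 were -0.12 and -0.01 (Fabp5 -0.02 to 0.36 with 1 mouse left out), and without batch 3 Cd9 and Igf1 at day 14 were 0.04 and -0.07 (-0.09 to 0.05 and -0.08 to 0.33). Lgals3 at day 7 ranged from -0.58 to 0.03, and Igf1 between days 7 and 1 was -0.18 without the 5% of cells with most UMIs. The cause was not tested. Gpnmb was too rare for the fit across genes, and Igf1 rested on 34 to 67 UMIs per mouse.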
